A study of Mus musculus with 20 samples.

Results

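Gene expression in mouse sarcomas that grew in a host was compared with that of mesenchymal cells kept in culture. All 20 arrays of the series entered: 12 tumor arrays against 8 culture arrays, with each of the 4 groups weighted equally. A gene was reported when both tumor groups lay on the same side of both culture groups, which held for 1294 of the 12343 genes tested with the tumors higher and for 1557 with the tumors lower. The tumors were CIC-DUX4 sarcomas (CDS, 6 arrays), named for the fusion of CIC, a transcriptional repressor, to DUX4, a transcription factor, and Ewing sarcomas (ES, 6 arrays). Both grew under the skin of Balb/c nude mice and received no treatment. The cultures were primary mesenchymal cells (eMC) in Iscove's modified DMEM with 15% FBS, taken 48 hours after spinofection with the retrovirus pMYs-CIC-DUX4-IRES-GFP (eMC CIC-DUX4, 4 arrays) or with pMYs-IRES-GFP (eMC empty, 4 arrays). The age of the animals, the fusion and the cells that gave rise to the ES tumors, and whether tumors shared a host are not given in the labels. Separate cultures are not stated for the eMC arrays either, so the p-values measure only the spread between these samples, which may be technical. Growth in a host, outgrowth as a tumor and the recent retroviral transduction of the cultures go together in this design and cannot be told apart.

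A tumor in an animal is built of more than its malignant cells. It draws in blood vessels lined by endothelial cells and wrapped by pericytes, it is entered by macrophages and other white blood cells, and it can enclose muscle, fat or skin of the site where it grows. Cells on plastic in serum have no circulation, and receive growth factors, oxygen and a stiff surface, which are known to act on stress, inflammatory, lipid and cytoskeletal genes. Nude mice lack a working thymus and therefore mature T cells, and keep macrophages, neutrophils, B cells and natural killer cells. In such bulk RNA, fewer cells of a type and less RNA per cell cannot be told apart.

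The deposited values are log2 signals, printed here as log2(signal + 1.42). The arrays shared a trimmed mean but not a distribution: the 75th percentile ranged from 4.10 to 8.94, and CDS 2, eMC CIC-DUX4 5 and eMC CIC-DUX4 6 had a median above 5. Each difference was therefore tested on the deposited scale and again after quantile normalization, and a gene was called only when it passed on both. Actb probes at the 3′ end exceeded those at the 5′ end, as happens when RNA breaks down, by 0.31 to 1.28 (log2) in CDS, 0.17 to 0.31 in ES, 0.19 to 0.23 in eMC CIC-DUX4 and 0.13 to 0.20 in eMC empty. Its part in the results was not tested. As a check of the culture label, the summed signal of 11 mesenchymal and fibroblast genes was 15.67 to 16.99 (log2) over the 8 culture arrays, against 12.2 to 15.04 in CDS and 12.78 to 14.81 in ES. In the same cultures the sum was as high for fat cell genes, at 15.4 to 17.41, and somewhat lower for macrophage genes, at 15.09 to 15.5. The cultures thus carried markers of more than mesenchyme.

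As deposited, 819 genes (6.64% of those tested) were called higher in the tumors and 1014 (8.22%) lower, using limma with a log2 difference of 1 or more in size and a p under 0.05 after Benjamini-Hochberg adjustment. After quantile normalization 1635 (13.2%) were higher and 1964 (15.9%) lower. Both scales called 723 genes higher (5.86%) and 942 lower (7.63%), and 0 genes were called in opposite directions. The share of higher calls was 44.7% as deposited and 45.4% after quantile normalization. It was 69.3% with the arrays scaled to the same median and 31.5% with the same 75th percentile, scalings that moved the median of all genes from -0.03 to 0.55 and -0.63. In 192 genes (1.56%) every one of the 12 tumor arrays lay above all 8 culture arrays, and in 311 (2.52%) below. When each tumor group had to pass against each culture group, 120 genes (0.972%) were higher and 238 (1.93%) lower as deposited.

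The called differences were large. The median size was 2.74 (log2) among the 723 higher genes and 2.56 among the 942 lower ones, and 143 and 173 of them differed by at least 4. CDS and ES differed from each other on both scales in 130 of the higher genes (18%) and 180 of the lower genes (19.1%), shares close to the 21.5% of all genes tested. Which culture came nearest to the tumors depended on the scale: among the higher genes it was eMC CIC-DUX4 for 695 as deposited and for 364 after quantile normalization.

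**Figure D1:**
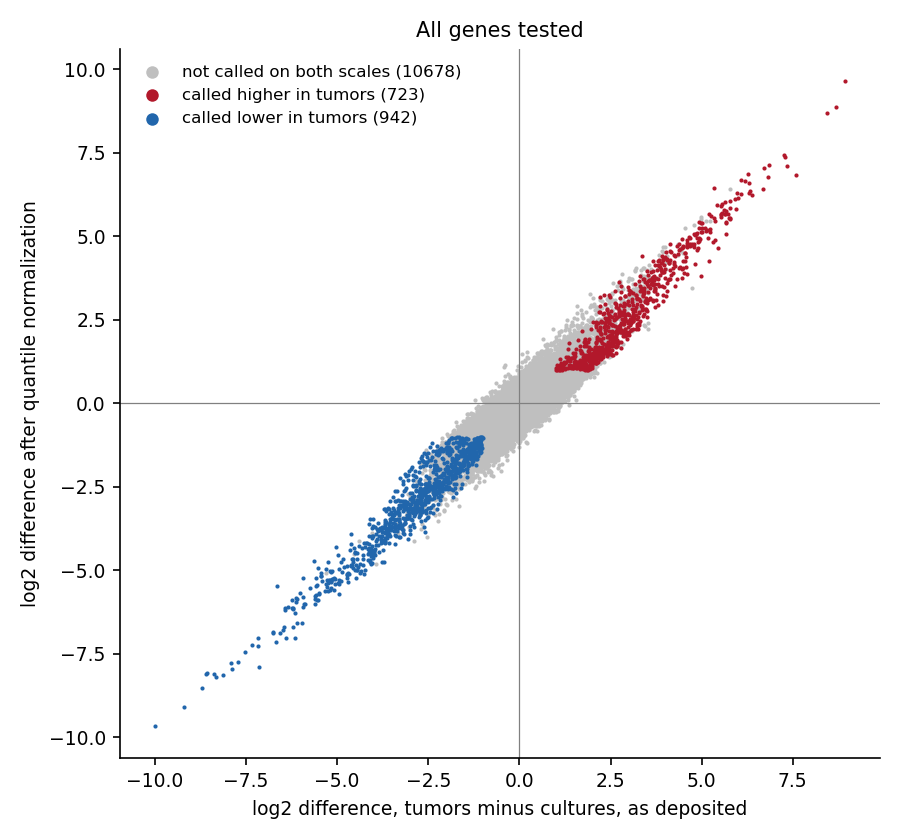
Each point is 1 of the genes tested. The x axis is the log2 difference of tumors minus cultures as deposited, and the y axis is the same difference after quantile normalization. Red points (723) were called higher and blue points (942) lower on both scales, and no point is called in opposite directions.

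Among genes called on both scales without overlap of tumor and culture arrays, the one with the largest rise was Rgs5, a regulator of G protein signalling that marks pericytes. It read 13.96 to 16.01 in the CDS arrays (median 14.76) and 11.48 to 13.5 in the ES arrays (median 12.8). In culture it read 7.43, 7.84, 6.54 and 4.86 in eMC CIC-DUX4, and 2.81, 3.23, 2.7 and 2.71 for eMC empty. Every tumor array stood far above every culture array. The log2 difference was 8.94 ± 0.37 (SE) as deposited, with an adjusted p of 3.32e-14 (limma), and 9.64 ± 0.22 after quantile normalization. In linear signal this was at least 124-fold. Such a bound raises each dim value of the dimmer side to the dip between the array's dim and bright part. Values of the brighter side were kept as read, so where some of these were also below a dip, the bound is not strict. The bound is given where all arrays of a dimmer group lay below the dip. The exact log2 difference then rests on values that have little order.

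Of the 12 genes with the largest rise among those without overlap, 5 more are known from blood vessels, and the protease inhibitor Ctla2a (6.84) and the uridine phosphorylase Upp1 (6.32) were also among the 12. Cdh5, the cadherin of endothelial junctions, read 11.61 to 12.66 in CDS (median 12.05) and 7.09 to 10.34 in ES (median 8.63). The eMC CIC-DUX4 arrays gave 5.86, 7.07, 2.1 and 2.39 and the eMC empty arrays 2.97, 2.87, 2.71 and 2.47. The highest culture array, eMC CIC-DUX4 6, fell just short of the lowest tumor array, ES 41. The difference was 6.83 ± 0.59 (adjusted p = 7.59e-09), at least 19.3-fold. Plvap, which builds the diaphragms of endothelial pores, rose by 6.18 ± 0.31 (at least 18.2-fold). Aplnr, the apelin receptor, rose by 8.43 ± 0.55 (at least 51.8-fold). Adgrf5, an adhesion receptor, rose by 6.68 ± 0.59 (at least 21.3-fold) and Nrarp, a feedback inhibitor of Notch signalling, by 6.3 ± 0.48 (at least 18.4-fold). A further, dimmer probe set was not called for Aplnr (1.67), Adgrf5 (2.68) or Nrarp (1.53). For all 6 genes the CDS tumors were also above the ES tumors, by 3.38 for Cdh5 (adjusted p = 0.00162), 3.39 for Plvap (6.72e-07), 3.05 for Adgrf5 (0.00389), 2.31 for Aplnr (0.0166), 2.19 for Rgs5 (0.0011) and 2 for Nrarp (0.0183).

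Of the 14 endothelial markers tested, 9 rose and 0 fell, with a median of 3.79 as deposited and 3.71 after quantile normalization, against -0.03 for all genes on either scale. Besides Cdh5 and Plvap these were Esam, a junction protein (5.93 ± 0.58, at least 13.2-fold), Sox18, Emcn, Pecam1, Egfl7, Kdr, the main receptor of vascular endothelial growth factor, and Cldn5. Eng, Flt1, Robo4, Tek and Vwf were not called. Esam was 8.77 in CDS 5, below the other 5 CDS arrays, and still above the culture maximum of 7.42. The summed endothelial signal was 14.44 to 14.7 (log2) in CDS, 10.99 to 13.15 in ES, 10.1 to 11.45 in eMC CIC-DUX4 and 6.64 to 7.32 in eMC empty. As deposited, this sum thus overlapped between ES and eMC CIC-DUX4 and stood apart in CDS. It was not taken after quantile normalization. On that scale the means in ES and eMC CIC-DUX4 were 7.81 and 3.26 for Cdh5, 8.89 and 3.85 for Esam, and 8.98 and 5.43 for Plvap. Of the 6 pericyte markers, Rgs5 and Mcam, an adhesion molecule of vessel walls, rose and 0 fell. Mcam ranged from 6.42 to 10.36 in CDS and overlapped the cultures (4.03 to 8.68). Pdgfrb, Notch3, Kcnj8 and Higd1b were not called on both scales. After quantile normalization alone, Pdgfrb was called lower (-1.91, limma adjusted p = 0.000377) and Higd1b higher (1.3, adjusted p = 0.000386). For the lists here and below, the shares of all genes tested were 5.86% higher and 7.63% lower.

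Red cell genes rose as well. Hba-a1, an alpha chain of haemoglobin, read 12.31 to 15.11 in CDS (median 14.25) and 12.58 to 14.49 in ES (median 13.72). It read 8.59, 8.79, 8.4 and 8.45 in eMC CIC-DUX4, and 3.96, 4.31, 4.33 and 4.5 for eMC empty. The tumor and culture arrays did not overlap, and the difference was 7.35 ± 0.32 (adjusted p = 7.41e-14, at least 67-fold). Hbb-b2, a beta chain, rose by 7.3 ± 0.32 (at least 53.9-fold), with no call between CDS and ES (0.35, adjusted p = 0.55). Alas2, the first enzyme of haem synthesis in red cell precursors, was the only other member tested and was not called (0.04 ± 0.69).

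**Figure D2:**
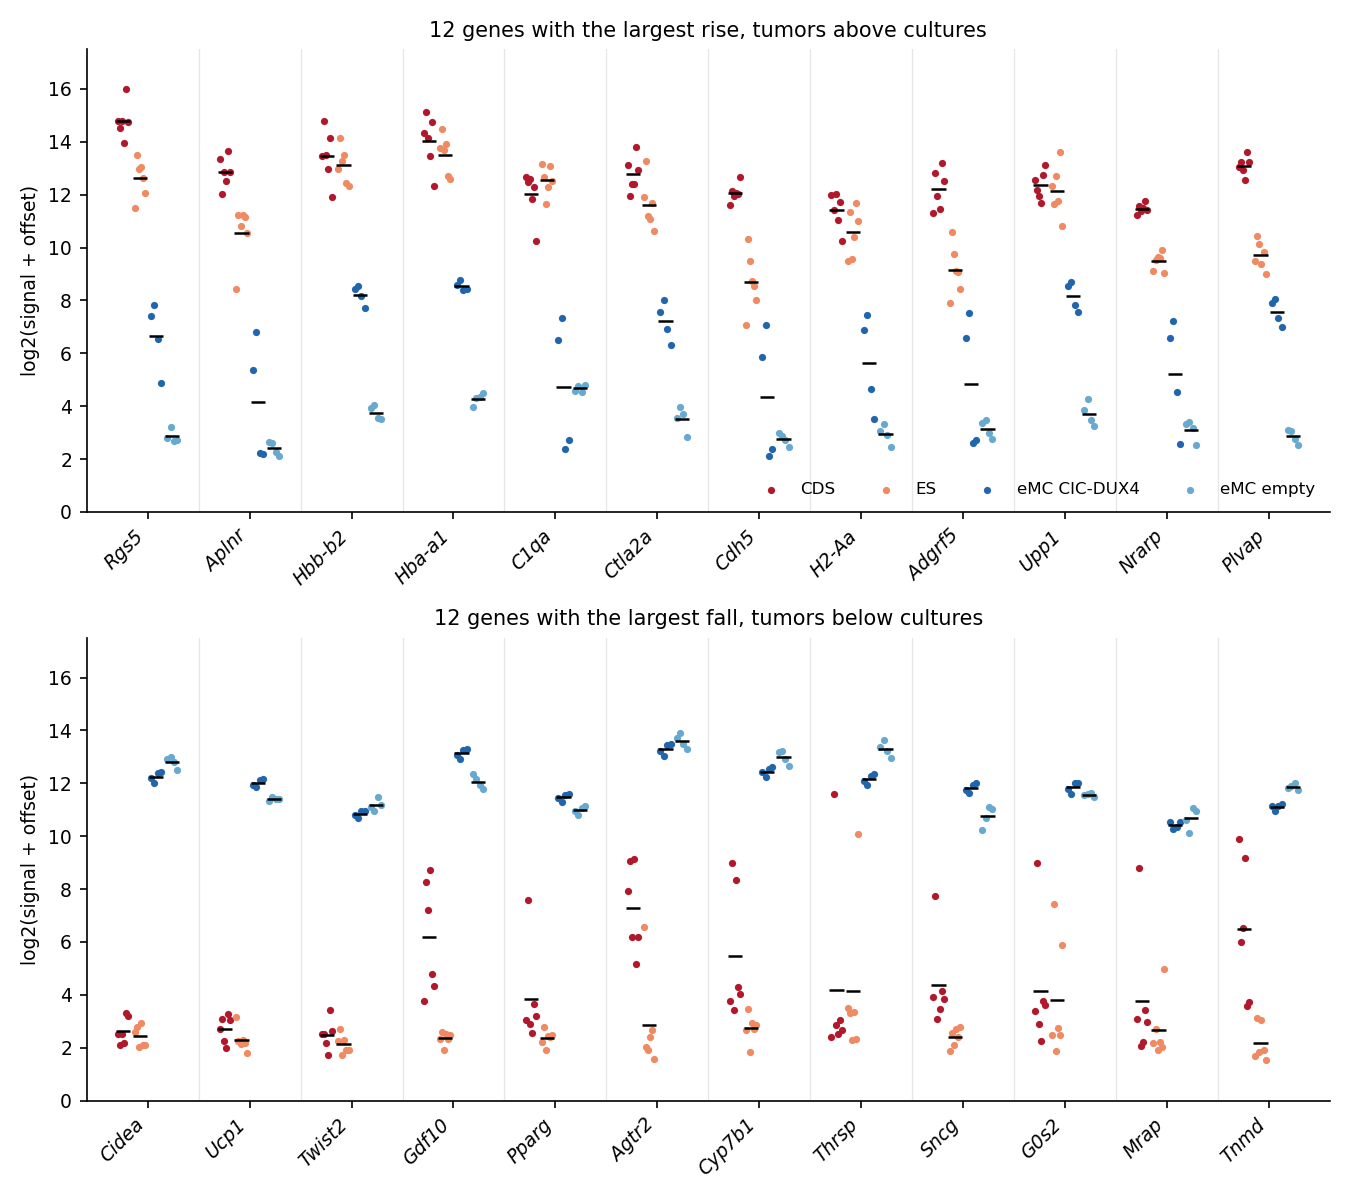
The y axis is log2(signal + offset), points are arrays, colours are the 4 groups and black bars are group means, for the 12 genes with the largest rise (top) and the 12 with the largest fall (bottom) among genes called on both scales. All were chosen for tumor and culture arrays that do not overlap. Among the lower genes single tumor arrays reach up, such as CDS 2 at 11.58 for Thrsp.

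Macrophage markers divided. C1qa, a chain of the complement protein C1q, read 10.26 to 12.65 in CDS (median 12.38) and 11.66 to 13.17 in ES (median 12.59). The cultures gave 6.51, 7.32, 2.38 and 2.74 in eMC CIC-DUX4, and 4.59, 4.76, 4.53 and 4.82 for eMC empty. The tumors were higher by 7.59 ± 0.54 (adjusted p = 2.97e-10), at least 67-fold, with CDS 6 the lowest tumor array. C1qb and C1qc rose by 6.37 ± 0.66 (at least 27.8-fold) and 5.79 ± 0.66 (at least 16.7-fold), although in each 1 CDS array (6.62 and 5.96) lay within the range of the cultures. The scavenger receptor Cd163, the mannose receptor Mrc1, Ms4a7 and Csf1r, the receptor of the macrophage growth factor, completed the 7 of 15 markers that rose, and 0 fell.

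The other 8 macrophage markers were not called, among them 3 of the most abundant, named here after their values were seen. Lyz2, lysozyme, had group means of 14.29 in CDS, 14.28 in ES, 14.12 in eMC CIC-DUX4, and 14.61 for eMC empty (difference -0.08 ± 0.42). Ctss, a lysosomal protease, had means of 13.56, 13.38, 13.17 and 13.38 (0.19 ± 0.2), and Tyrobp, a signalling adaptor, 11.56, 11.86, 11.5 and 10.22 (0.85 ± 0.31). Cultures and tumors thus lay close together for Lyz2 and Ctss and far apart for C1qa. The summed macrophage signal was 14.57 to 16.66 in CDS, 14.98 to 16.5 in ES, 15.09 to 15.47 in eMC CIC-DUX4 and 15.11 to 15.5 in eMC empty, so that the groups overlapped.

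Class II antigen presentation, used by macrophages, dendritic cells and B cells to show peptides to helper T cells, rose in 5 of 6 genes and fell in 0, with a median of 3.56 (3.87 quantile). H2-Aa read 10.25 to 12.03 in CDS (median 11.57) and 9.51 to 11.67 in ES (median 10.71). It read 6.9, 7.44, 4.66 and 3.53 in eMC CIC-DUX4, and 3.05, 3.34, 2.9 and 2.44 for eMC empty. All tumor arrays exceeded all cultures, by 6.72 ± 0.49 in the group means (adjusted p = 5.78e-10, at least 25.1-fold). H2-Eb1 rose by 5.76 ± 0.55 (at least 14.1-fold), also without overlap, and H2-Ab1 by 4.12 ± 0.59 (at least 3.96-fold) with overlap, since ES had a low array at 5.07. Cd74, the invariant chain (at least 1.96-fold), and H2-DMb1 were the other members that rose, but the mean of H2-DMb1 in the tumors was itself no higher than the culture bound, so no fold is given. Genes not reached by the rule for named genes are given with values where they complete a list, and were chosen after their values were seen. In class I presentation, open to nearly all cells, 0 of 6 rose and only Tapbp, which loads peptides, fell, where 7.63% of all genes fell. The fall of Tapbp was 1.25 on the log2 scale (limma, adjusted p = 1.13e-05). The Tapbp call was lost with the arrays at the same median or the same 75th percentile.

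Markers of other white blood cells gave little. The neutrophil proteins S100a8 and S100a9 were 2 of 4 members that rose, and 0 fell. S100a8 spread from 3.41 to 10.11 in CDS and from 3.71 to 12.53 in ES, against 2.25 to 6.69 in culture (3.93 ± 1.03, adjusted p = 0.00514, at least 2.42-fold). S100a9 (3.27 ± 1.09, at least 1.77-fold) lost its call without eMC CIC-DUX4 7 or 8 (adjusted p = 0.0591 and 0.0561). Of 4 natural killer cell genes, only Gzma, a granule protease, rose (2.47 ± 0.9, adjusted p = 0.0395), with a tumor mean of 4.88 below the culture bound of 5.63, so no fold is given. That call was lost in 13 of the 20 fits that leave out an array, with adjusted p between 0.0526 and 0.0835. Of the 3 T cell genes tested 0 were called by limma, and 1 passed an unadjusted p of 0.05 as deposited; with the arrays at the same 75th percentile Cd3e was called lower (-1.77). Cd3e, part of the T cell receptor complex, read 2.52 to 6.09 in CDS, 2.64 to 3.86 in ES and 3.06 to 7.06 in culture. Cd79a, the only B cell gene tested, was not called (-0.87 ± 0.5), and 0 of 1 passed an unadjusted p of 0.05. Of 8 complement genes Cfp, properdin, rose (3.81 ± 0.78, at least 3.2-fold) and 0 fell. Among all genes 5.86% rose and 7.63% fell.

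Mast cell proteases went the other way. Cma1, mast cell chymase, read 2.16 to 3.39 in CDS (median 2.79) and 1.71 to 2.73 in ES (median 2.59). It read 9.78, 9.66, 9.73 and 9.82 in eMC CIC-DUX4, and 5.01, 5.24, 7.42 and 9.01 for eMC empty. Every tumor array lay below every culture, and Cma1 fell by 5.61 on the log2 scale (SE 0.5, adjusted p = 1.23e-08, at least 7.12-fold). Cpa3, a mast cell carboxypeptidase, fell by 5.75 (at least 9.22-fold), with CDS 2 as the highest tumor array at 6.09. The tryptase Tpsb2 fell by 3.17, but its eMC empty values (3.9 to 4.77) lay below the dips of their arrays, so no fold is given. The fourth member, the stem cell factor receptor Kit, which other cells also make, rose by 3.84 ± 0.54 (at least 4.18-fold).

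Skeletal muscle genes rose unevenly. Myh4, a fast myosin heavy chain, read 2.39, 8.09, 15.77, 14.22, 14.95 and 4.24 in CDS 1 to 6, and 11.39, 14.72, 12.49, 15.11, 14.19 and 1.66 in ES 41, 46, 47, 48, 49 and 51. The cultures read 1.28, 5.12, 1.28 and 1.35 in eMC CIC-DUX4, and 1.74, 2.12, 1.91 and 1.87 for eMC empty. CDS 1, CDS 6 and ES 51 lay within the culture range while 8 tumors exceeded 11. The difference was 8.68 ± 1.71 (adjusted p = 0.000415), at least 37.4-fold, since the cultures that had a dip lay below it. With Myh1, Ckm, the muscle creatine kinase, Pvalb and Tnni2, 5 of 11 muscle genes rose and 0 fell, where 5.86% of all genes rose. Acta1, Myl1 and Mylpf were not called and had culture means between 10.54 and 12.51. The summed muscle signal ran from 10.36 to 18.7 in CDS and from 10.76 to 18.22 in ES, against 12.6 to 12.7 in eMC CIC-DUX4 and 13.9 to 14.04 in eMC empty. The part of muscle in the other results was not tested.

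**Figure D3:**
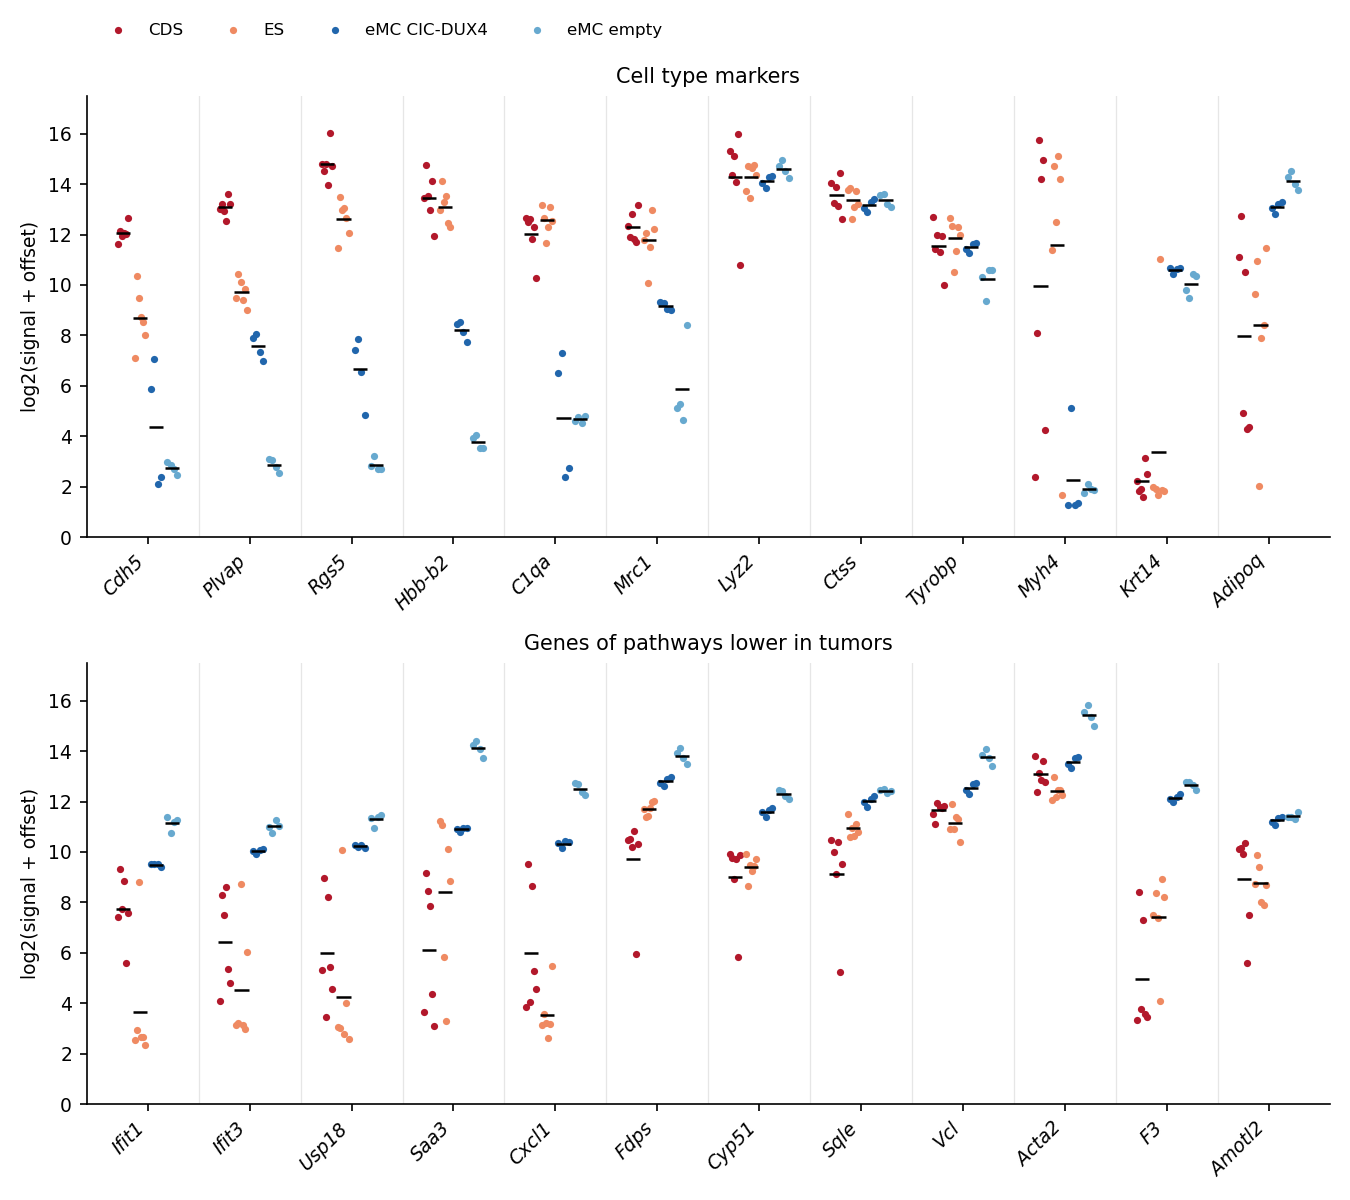
The y axis is log2(signal + offset), points are arrays, colours are the 4 groups and black bars are group means, for 12 cell type markers (top) and 12 genes of pathways described in the text (bottom). Lyz2 and Ctss have similar group means in tumors and cultures, whereas C1qa does not overlap. Myh4 spans 1.66 to 15.77 among the tumors, and ES 48 stands alone among the tumors for Krt14 at 11.05.

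In the other direction, the largest fall among genes without overlap was that of Cidea, a lipid droplet protein abundant in brown fat. It read 2.09 to 3.33 in CDS (median 2.51) and 2.04 to 2.92 in ES (median 2.35). The cultures gave 12.2, 12.01, 12.38 and 12.42 in eMC CIC-DUX4, and 12.92, 13, 12.8 and 12.5 for eMC empty. The groups were separated by a wide gap with little spread on either side. Cidea fell by 10 on the log2 scale (SE 0.41, adjusted p = 3.32e-14), and by 9.65 after quantile normalization, at least 142-fold. Ucp1, the uncoupling protein by which brown fat makes heat, read 1.99 to 3.27 in CDS and 1.8 to 3.17 in ES, against 11.94, 11.86, 12.14 and 12.17 in eMC CIC-DUX4, and 11.33, 11.49, 11.4 and 11.4 for eMC empty. It fell by 9.2 (SE 0.41, at least 80.9-fold).

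Other genes of fat cells were among the 12 with the largest fall without overlap. Pparg, the master regulator of fat cell formation, fell by 8.12 (SE 0.56, adjusted p = 1.92e-10, at least 46.7-fold). The lipogenic regulator Thrsp fell by 8.57, G0s2, an inhibitor of fat breakdown, by 7.72, and Mrap, an accessory protein of melanocortin receptors, by 7.35. In these 4 genes CDS 2 was the highest CDS array, at 7.6, 11.58, 8.98 and 8.78, and for Thrsp ES 51 reached 10.07. Adipoq, adiponectin, was likewise spread in the tumors, from 4.3 to 12.75 in CDS and from 2.01 to 11.46 in ES. All tumor arrays were below the 8 cultures (12.82 to 14.53), and Adipoq fell by 5.42 (SE 1.12, adjusted p = 0.000657). Fabp4 (-1.33 ± 0.27) was the third of 6 fat cell markers that fell, and 0 rose. The Fabp4 call was lost with the arrays at the same median or 75th percentile. Retn was not called, at 3.15 to 12.04 in CDS and 3.76 to 10.77 in ES. It read 7.42 to 8.16 in eMC CIC-DUX4 and 3.88 to 4.44 in eMC empty. On the quantile scale alone, 5 of the 6 markers were called lower. The summed fat cell signal was 13.39 to 16.31 in CDS and 12.88 to 15.6 in ES, and 15.4 to 17.41 in the cultures.

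The 6 others of these 12 genes were Twist2, Gdf10, Agtr2, Cyp7b1, Sncg and Tnmd. Twist2, a transcription factor of dermal and other mesenchyme, read 1.74 to 3.41 in CDS (median 2.51) and 1.73 to 2.69 in ES (median 2.08). It read 10.8, 10.69, 10.95 and 10.94 in eMC CIC-DUX4, and 11.12, 10.94, 11.48 and 11.17 for eMC empty. The 2 sides were about as cleanly parted as for Cidea, and Twist2 fell by 8.7 (SE 0.42, adjusted p = 3.53e-13, at least 49.7-fold). Gdf10, a growth factor of the TGF-beta family, fell by 8.33 (at least 81.2-fold), and Agtr2, the type 2 angiotensin receptor, by 8.37. Cyp7b1, which hydroxylates oxysterols, fell by 8.6 (at least 94.8-fold), Sncg, gamma-synuclein, by 7.91 (at least 48.4-fold), and Tnmd, tenomodulin of tendon and fat, by 7.16 (at least 34.8-fold). Of these 6 genes, 5 were higher in CDS than in ES, with differences of 3.81 for Gdf10, 4.42 for Agtr2, 4.29 for Tnmd, 2.74 for Cyp7b1 and 1.96 for Sncg.

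Of the 11 mesenchymal and fibroblast markers tested, 6 fell and 0 rose, and 10 fell after quantile normalization. The median was -2.73 (-3.2 quantile). Prrx1, a homeobox factor of limb and skin mesenchyme, read 6.25 to 11.03 in CDS (median 10.36) and 4.65 to 11.89 in ES (median 10.36), against 12.93 to 13.46 in eMC CIC-DUX4 and 13.58 to 14.34 in eMC empty. No tumor array reached a culture, and Prrx1 fell by 4.13 (SE 0.71, adjusted p = 0.000102). Lum, the collagen-binding proteoglycan lumican, fell by 3.04 (SE 0.51), with ES 47 lowest at 5.59. Dcn, S100a4 and Dpt were the other members that fell, while Thy1, Mfap5 and Fbln1 were not called. Twist1 parted the tumors, with group means of 9.26 in CDS, 2.57 in ES, 10.46 in eMC CIC-DUX4, and 7.56 for eMC empty, and so was not on one side of both cultures.

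The keratin gene Krt14 was higher in both cultures than in most tumors. Krt5 was high as deposited in eMC CIC-DUX4 (9.04 to 9.31) and in eMC empty 7 (7.96). The other eMC empty arrays read 4.24 to 5.12 and overlapped CDS (2.47 to 6.28). After quantile normalization the Krt5 means in eMC CIC-DUX4 and eMC empty were 8.01 and 7.73. Krt14, a basal keratin, read 1.59 to 3.15 in CDS (median 2.07) and at most 1.99 in 5 of the ES arrays, whereas ES 48 read 11.05. The cultures read 10.68, 10.45, 10.62 and 10.68 in eMC CIC-DUX4, and 9.82, 9.49, 10.43 and 10.35 for eMC empty. Krt14 fell by 7.52 (SE 0.9, adjusted p = 9.98e-07, at least 22.3-fold), and ES 48 alone kept the groups from being apart. Krt5 and the transcription factor Trp63 were also highest among the tumors in ES 48 (9.63 and 5.96). In all, 3 of 10 keratinocyte genes fell and 0 rose, where 7.63% of all genes fell. The others were not called, and some were high in ES. Krt10 read 8.34 to 12.85 in ES, 3.38 to 7.93 in CDS, 7.22 to 8.11 in eMC CIC-DUX4 and 3.68 to 4.33 in eMC empty. Krt15 reached 11.69 in ES 49 and Cdh1 12.38 in ES 51. The summed keratinocyte signal was 6.75 to 9.42 in CDS and 10.24 to 14.42 in ES. It was 12.02 to 12.22 in eMC CIC-DUX4 and 9.81 to 10.91 in eMC empty. As deposited, Trp63 was high in eMC CIC-DUX4 alone, at 6.06 to 7.78 against 2.74 to 3.36 in eMC empty. After quantile normalization the means of these groups were 4.72 and 3.5. No fold is given for Trp63 because its culture mean of 4.92 lay below the tumor bound of 5.42. Of 4 Schwann cell genes, S100b and Sox10 were called lower and 0 higher. S100b read 7.25 to 8.36 in eMC CIC-DUX4, 3.6 to 4.44 in eMC empty, 2.69 to 6.29 in CDS and 1.56 to 2.62 in ES. Sox10 read 7.65 to 8.46, 3.46 to 4.16, 2.28 to 6.49 and 2.25 to 3.34 in the same order. As deposited, both were thus high in eMC CIC-DUX4 alone, and eMC empty overlapped CDS. After quantile normalization the means in eMC CIC-DUX4 and eMC empty lay close together, at 5.92 and 6.36 for S100b and 6.14 and 5.68 for Sox10. No fold is given for either, because all their eMC empty values lay below the dips of their arrays (5.31 to 8.18). The Sox10 call was lost without CDS 3 or CDS 4, where its order of group means changed while its adjusted p was 0.000198 and 0.000134.

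Inflammatory genes gave one of the broadest falls. Of 12 acute-phase proteins and chemokines, 9 fell and 0 rose, with a median of -5.23 (-5.32 quantile), where 7.63% of all genes fell. Cxcl5, a chemokine that draws neutrophils, read 5.84 to 10.23 in CDS (median 9.37) and 1.62 to 9.21 in ES (median 2.6). It read 11.97, 11.79, 12.11 and 12.14 in eMC CIC-DUX4, and 14, 14.14, 13.75 and 13.48 for eMC empty. All tumors lay below all cultures, and Cxcl5 fell by 6.42 (SE 0.85, adjusted p = 3.75e-06), with CDS above ES by 4.48 (adjusted p = 0.00329). Ptx3, the long pentraxin, fell by 6.1 (SE 0.93) and the monocyte chemokine Ccl7 by 5.53 (SE 0.87), both without overlap. Ccl2, Cxcl1, Cxcl12, the acute-phase protein Saa3, Lcn2 and the cytokine Il6 were the other members that fell. Hp, Cxcl2 and Ccl20 were not called. The summed signal of the list was 10.8 to 14.59 in CDS and 11.51 to 14.15 in ES, below the 15.25 to 17.52 of the cultures.

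Interferon response genes, which block virus replication, fell in 6 of 7 members and rose in 0. Their median was -3.66 (-3.55 quantile). Ifit1, which binds foreign RNA, read 5.58 to 9.33 in CDS (median 7.65) and 2.33 to 8.82 in ES (median 2.65). The cultures, both of which had received a retrovirus 48 hours earlier, read 9.52, 9.54, 9.54 and 9.39 in eMC CIC-DUX4, and 11.4, 10.76, 11.19 and 11.26 for eMC empty. The highest tumor array, at 9.33, was just under the lowest culture, and Ifit1 fell by 4.62 (SE 0.7, adjusted p = 2.04e-05). Usp18, a brake on interferon signalling, fell by 5.64 (SE 0.84), and Ifit3 by 5.04 (SE 0.74). Irf7, Oasl2 and Gbp2 fell too, and Rsad2 was not called (0.8 ± 0.8). Of the ES tumors ES 47 stood out, at 10.09 for Usp18 and 8.82 for Ifit1, while the next ES arrays read 4.02 and 2.93. Ifit1 was not called with the arrays at the same 75th percentile.

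To show what the promoters of these genes share, the 200 bases before the start site of Ifit1 and Ifit3 are given 5′ to 3′ (RefSeq, GRCm38.p6, both on the + strand, at chr19:34640689-34640888 and chr19:34583329-34583528). Capitals mark the core GAAANNGAA of the interferon-stimulated element on either strand, N being any base.
Ifit1: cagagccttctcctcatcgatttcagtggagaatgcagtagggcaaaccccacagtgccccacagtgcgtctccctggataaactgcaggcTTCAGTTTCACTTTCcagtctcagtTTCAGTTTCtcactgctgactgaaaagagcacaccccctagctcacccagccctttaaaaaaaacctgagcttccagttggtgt
Ifit3: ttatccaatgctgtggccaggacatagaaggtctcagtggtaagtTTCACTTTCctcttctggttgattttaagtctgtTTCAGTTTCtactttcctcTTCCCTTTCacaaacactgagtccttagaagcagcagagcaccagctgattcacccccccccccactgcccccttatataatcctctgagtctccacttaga
Both hold 3 matches, which in Ifit1 overlap in part. The core was found in 3 of the 5 interferon genes that fell and had a promoter in the table, and in 8.41% of the 9914 tested genes with one (9.76% of all 27025). Among genes called on both scales it was in 9.39% of the higher and 11.8% of the lower ones. These windows run from 250 bases before to 50 after the start, and a match is a description of letters only.

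Cholesterol synthesis was lower in most of its genes. Of 10 members tested 7 fell and 0 rose, all 10 fell after quantile normalization, and the median was -2.27 (-2.52 quantile). With the arrays at the same median only 2 fell. Cyp51, which demethylates lanosterol, read 5.85 to 9.91 in CDS (median 9.75) and 8.65 to 9.9 in ES (median 9.45). It read 11.57, 11.37, 11.67 and 11.76 in eMC CIC-DUX4, and 12.44, 12.42, 12.24 and 12.12 for eMC empty. Tumors and cultures did not overlap, and Cyp51 fell by 2.74 (SE 0.4, adjusted p = 1.41e-05). Fdps, which makes farnesyl diphosphate, read 5.97 in CDS 5 and 10.18 to 12.01 in the other tumors, against 12.6 to 12.97 in eMC CIC-DUX4 and 13.49 to 14.12 in eMC empty. It fell by 2.6 (SE 0.42), also without overlap. Hmgcs1, which makes the precursor of mevalonate, was called lower, but all 12 tumor arrays and all eMC empty arrays lay below their dips. No fold is therefore given for Hmgcs1. It was high in eMC CIC-DUX4 alone (7.37 to 8.34), and its 4 eMC empty arrays (2.77 to 3.76) overlapped the tumors (1.55 to 3.44). Sqle, Idi1, Fdft1 and the feedback regulator Insig1 were the other members that fell.

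The promoter of Hmgcs1 is shown because it alone of the 4 called cholesterol genes with a promoter in the table held the sterol element TCACNCCAC, searched on both strands and chosen after the values were seen. The 200 bases before its start are at chr13:119690151-119690350 on the + strand, with the match in capitals.
Hmgcs1: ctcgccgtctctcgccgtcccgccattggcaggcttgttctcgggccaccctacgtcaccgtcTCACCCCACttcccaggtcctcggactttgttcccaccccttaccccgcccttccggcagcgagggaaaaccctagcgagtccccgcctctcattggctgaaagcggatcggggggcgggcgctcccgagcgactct
This element was in 1.48% of the promoters of tested genes.

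Genes of the response to low oxygen rose in 6 of 11 members and fell in 1, with a median of 2.88 (2.33 quantile), where 5.86% of all genes rose. Pdk1, which keeps pyruvate out of mitochondria, read 7.63 to 11.31 in CDS (median 9.86) and 11.54 to 12.97 in ES (median 12.41). It read 9.43, 9.41, 9.34 and 9.25 in eMC CIC-DUX4, and 6.06, 5.3, 7.21 and 9.13 for eMC empty. ES lay above all cultures and CDS overlapped them; the difference was 2.88 ± 0.45 (adjusted p = 3.27e-05), and CDS was below ES by -2.57 (adjusted p = 0.00175). The other probe sets of Pdk1 were not called. In both, the mean of CDS lay below that of eMC CIC-DUX4, at 6.14 against 7.07 and 9.26 against 9.68. The Pdk1 call was lost with the mean of its probe sets. Ankrd37 rose by 4.79 ± 0.87 (at least 3.93-fold), with ES 48 at 3.54 and the other ES arrays at 8.85 or more. Vegfa, the main angiogenic factor, rose from group means of 10.42 and 6.89 in eMC CIC-DUX4 and eMC empty to 12.95 in CDS and 10.82 in ES (3.23 ± 0.43). Kdm3a, Ndrg1 and Bnip3 rose by 3.04 ± 0.41, 3.27 ± 0.45 and 1.03 ± 0.21. Car9, a carbonic anhydrase often used as a hypoxia marker, was not called, having means of 11.75 in CDS and 2.64 in ES.

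Adm, adrenomedullin, was the exception. It read 3.36 to 10.27 in CDS (median 5.06) and 2.84 to 9.46 in ES (median 7.65), against 12.46 to 12.86 in eMC CIC-DUX4 and 12.4 to 12.5 in eMC empty. Tumors and cultures did not overlap, and Adm fell by 6.23 (SE 0.86, adjusted p = 6.28e-06). Glycolytic enzymes, many of them also known to respond to low oxygen, were called in 0 of 9 cases on both scales, with a median of 0.21 (0.31 quantile). Gapdh read 14.2 to 15.68 in CDS, 13.99 to 14.71 in ES, 13.33 to 13.76 in eMC CIC-DUX4 and 14.87 to 15.8 in eMC empty (0.14 ± 0.16). With limma, 2 of the 9 passed an unadjusted p of 0.05 as deposited and 4 after quantile normalization, without the size and order of groups that a call requires.

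Bnip3, a protein of mitochondrial clearance, shows the core of the hypoxia element, ACGTG or GCGTG, 5 times in the 200 bases before its start (chr7:138909507-138909706, - strand, printed 5′ to 3′ along the gene), 2 of them overlapping on opposite strands.
Bnip3: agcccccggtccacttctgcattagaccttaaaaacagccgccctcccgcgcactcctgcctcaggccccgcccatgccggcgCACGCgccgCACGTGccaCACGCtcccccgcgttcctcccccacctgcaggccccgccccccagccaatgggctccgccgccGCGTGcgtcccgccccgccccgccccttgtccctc
The form ACGTG was in 3 of the 5 hypoxia genes that rose and had a promoter in the table, and in 28.7% of tested genes; GCGTG was in all 5 and in 54.3%. Adm, which fell, held GCGTG as well.

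Genes of the contractile cytoskeleton fell in 4 of 12 members and rose in 0, where 7.63% of all genes fell. The median was -0.74 (-0.62 quantile). Vcl, vinculin of focal adhesions, read 11.11 to 11.95 in CDS (median 11.76) and 10.38 to 11.91 in ES (median 11.12). It read 12.46, 12.3, 12.68 and 12.72 in eMC CIC-DUX4, and 13.85, 14.1, 13.71 and 13.41 for eMC empty. The groups did not overlap, and Vcl fell by 1.76 (SE 0.18, adjusted p = 1.41e-07). Acta2, smooth muscle actin, fell by 1.75 (SE 0.17), Myl9, a myosin light chain, by 2.74 (SE 0.65) and the calponin Cnn2 by 1.39 (SE 0.18). With the arrays at the same median 0 of the 4 were called, and with the same 75th percentile 1. Tpm1, Tpm2, Flna and Actn1 were not called.

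Targets of YAP and TEAD, which relay stiffness and cell spreading to the nucleus, fell in 4 of 11 members and rose in 0. The median was -1 (-1.77 quantile), and 2 of the members fell with the arrays at the same median. Among all genes 7.63% fell. F3, tissue factor, read 3.34 to 8.43 in CDS (median 3.68) and 4.09 to 8.91 in ES (median 7.87). The cultures read 12.09, 12, 12.17 and 12.3 in eMC CIC-DUX4, and 12.77, 12.77, 12.65 and 12.47 for eMC empty, so that the sides were at least 3 apart on the log2 scale. F3 fell by 6.21 (SE 0.67, adjusted p = 2.17e-07). Amotl2, which binds YAP, fell by 2.48 (SE 0.5) without overlap, Ccn1, a matricellular protein, by 2.09 (SE 0.3), and Lats2, a kinase that restrains YAP, by 3.68 (SE 0.7). The Lats2 call was lost without eMC empty 7 (adjusted p = 0.000917, with another order of group means). Ccn2, the best known target, was not called (0.01 ± 0.25), with means of 14.64 in CDS, 12.01 in ES, 13.15 in eMC CIC-DUX4, and 13.48 for eMC empty.

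The promoters of 4 of these genes are shown with the binding motif their group is known for, as 200 bases before the start. In Cnn2 (chr10:79988400-79988599, + strand) and Myl9 (chr2:156775264-156775463, + strand) capitals mark the CArG box, bound by serum response factor.
Cnn2: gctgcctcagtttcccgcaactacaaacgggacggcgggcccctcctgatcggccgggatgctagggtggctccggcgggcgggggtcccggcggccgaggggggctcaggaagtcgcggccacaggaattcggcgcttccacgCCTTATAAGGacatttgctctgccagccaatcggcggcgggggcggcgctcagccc
Myl9: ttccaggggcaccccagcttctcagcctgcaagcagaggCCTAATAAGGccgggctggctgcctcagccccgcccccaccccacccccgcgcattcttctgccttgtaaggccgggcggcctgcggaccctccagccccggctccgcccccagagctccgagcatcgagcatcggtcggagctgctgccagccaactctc
In Ccn1 (chr3:145649986-145650185, - strand) and Amotl2 (chr9:102717604-102717803, + strand) capitals mark the TEAD core GGAATG, which lies on the opposite strand in both.
Ccn1: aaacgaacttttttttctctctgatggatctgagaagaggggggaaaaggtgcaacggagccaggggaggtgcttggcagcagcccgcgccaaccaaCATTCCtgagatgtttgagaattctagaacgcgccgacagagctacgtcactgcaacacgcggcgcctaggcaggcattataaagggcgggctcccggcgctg
Amotl2: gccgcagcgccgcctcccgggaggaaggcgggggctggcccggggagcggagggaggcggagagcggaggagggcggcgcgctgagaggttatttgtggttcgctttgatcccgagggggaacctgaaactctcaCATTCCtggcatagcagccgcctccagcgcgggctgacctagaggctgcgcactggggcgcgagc
The CArG box was found in 3 of the 4 cytoskeletal genes that fell (Vcl being the third, Acta2 lacking it in this window) and in 1.66% of tested genes. The TEAD core was in 3 of the 4 YAP and TEAD targets that fell and in 15% of tested genes. Among all genes called on both scales the CArG box was in 2.05% of the higher and 2.37% of the lower ones, and the TEAD core in 15.5% and 16%.

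Matrix genes fell in part. Of 14 fibrillar collagen and interstitial matrix genes 3 fell and 0 rose, and 9 fell after quantile normalization (medians -1.46 and -1.29). With the arrays at the same median 0 of the 14 fell. Among all genes 7.63% fell on both scales and 15.9% after quantile normalization. Lox, which cross-links collagen, read 12.08 to 13.69 in CDS (median 13.3) and 9.71 to 13.26 in ES (median 11.37), against 13.71 to 14.19 in eMC CIC-DUX4 and 14.72 to 15.62 in eMC empty. Lox fell by 2.31 (SE 0.32, adjusted p = 7.99e-06) and Thbs2, thrombospondin 2, by 2.36 (SE 0.29), both just without overlap. Tnc, tenascin C, fell by 1.13 (SE 0.26) with overlap. Lox and Thbs2 were higher in CDS than in ES, Lox by 1.76 and Thbs2 by 2.55, as was Tnc by 1.22. The main collagens Col1a1, Col3a1 and Col5a1 were not on one side of both cultures: Col1a1 had means of 12.38 in CDS, 8.76 in ES, 12.09 in eMC CIC-DUX4, and 12.86 for eMC empty.

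Of 6 basement membrane genes Nid1 and Lamb1, a nidogen and a laminin chain, fell by 1.52 and 1.08, and 0 rose. The share of all genes that fell was 7.63%. Neither Nid1 nor Lamb1 was called with the arrays at the same median or 75th percentile. Lamb1 was also lost without ES 51 (-0.95, under the required size, adjusted p = 0.0033). Of 11 matrix proteases and inhibitors 5 fell and 0 rose. Mmp3, stromelysin, fell by 3.41 (SE 0.79), and CDS was below ES by -3.89 (adjusted p = 0.00602). Mmp2, a gelatinase, fell by 1.73 (SE 0.34), with CDS above ES by 2.04, and Plat, tissue plasminogen activator, by 1.76 (SE 0.48). Mmp14 and Timp2 were the other members that fell. With the arrays at the same median 0 of the 5 were called, and with the same 75th percentile 2.

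**Figure D4:**
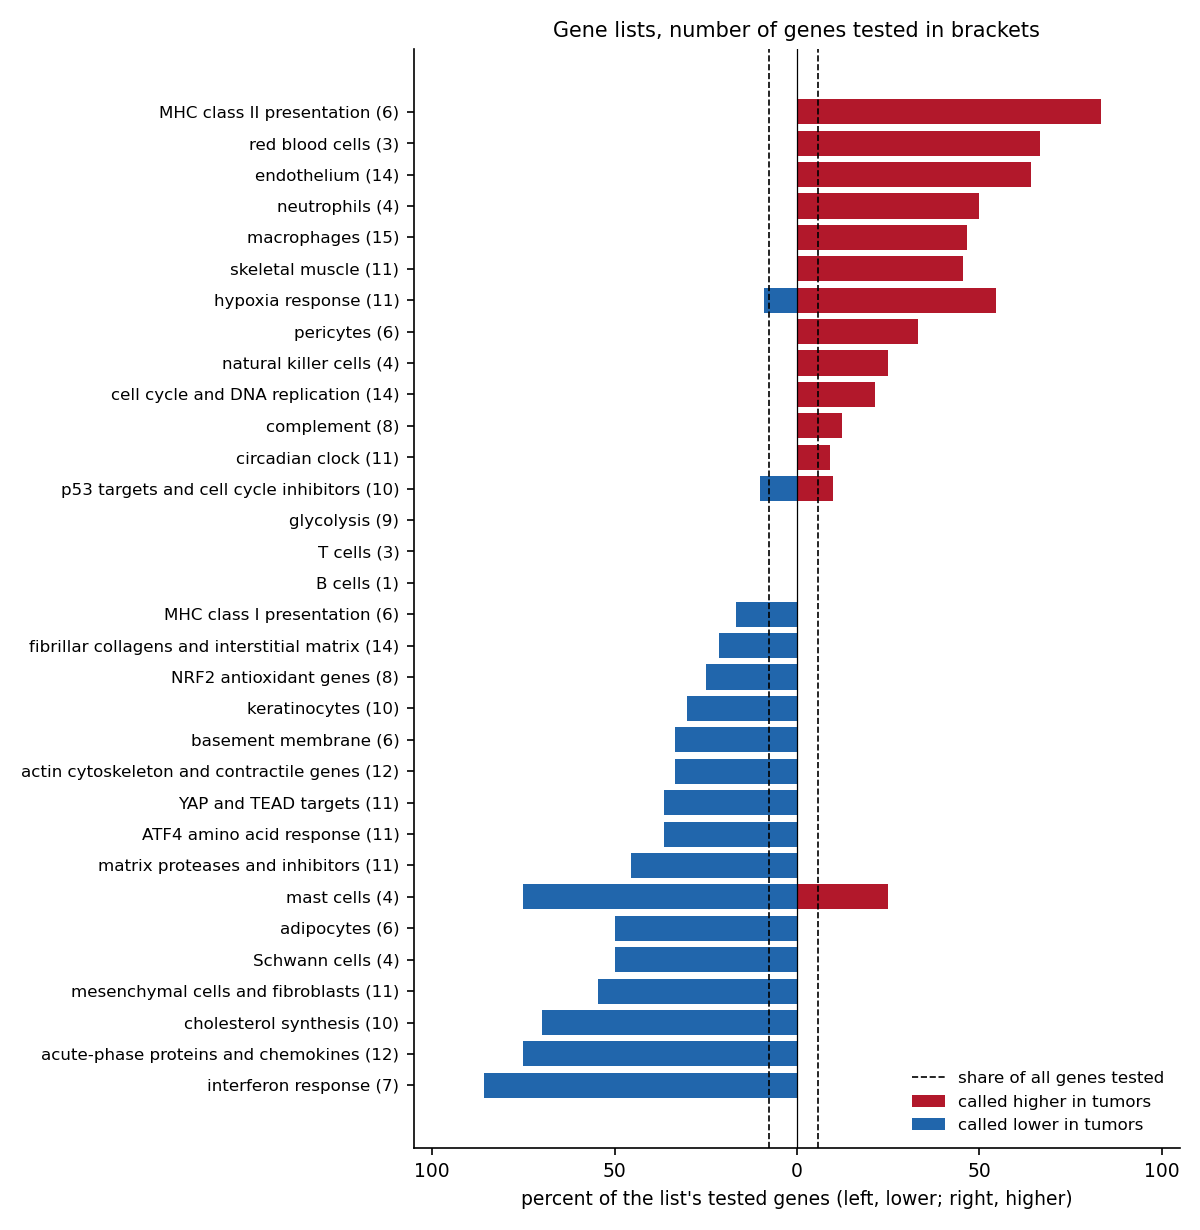
Bars give the percent of each list's tested genes called on both scales, higher in the tumors to the right (red) and lower to the left (blue), with the number tested in brackets. Dashed lines mark the shares of all genes tested, 5.86% higher and 7.63% lower. Class II presentation and red cell genes reach farthest right, interferon response, acute-phase and mast cell genes farthest left, and some lists hold very few genes.

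Stress responses of amino acid and redox metabolism were lower in part, where 7.63% of all genes tested fell. Of 11 targets of ATF4, the factor induced when amino acids run short, 4 fell and 0 rose (medians -1.65 and -1.64). Trib3, a pseudokinase, read 3.36 to 8.68 in CDS (median 4.78) and 2.7 to 6.3 in ES (median 4.75). It read 10.25, 10.12, 10.32 and 10.34 in eMC CIC-DUX4, and 5.86, 5.88, 9.16 and 9.81 for eMC empty, so that the last group overlapped the tumors. Trib3 fell by 4.06 (SE 0.77, adjusted p = 0.000294), the stress factor Ddit3 by 3.58 (SE 0.64), Sesn2 by 2.56 (SE 0.62, at least 1.46-fold) and Chac1, which degrades glutathione, by 2.18 (SE 0.66). Another probe set of Sesn2 was not called (-0.9), with the mean of CDS (4.96) above that of eMC empty (3.62). The Sesn2 call was lost with the mean of its probe sets. Of 8 antioxidant targets of NRF2, 2 fell and 0 rose. Slc7a11, the cystine importer, read 1.9 to 3.6 in CDS and 1.58 to 2.51 in ES, against 7.83, 8.49, 7.65 and 7.26 in eMC CIC-DUX4, and 4.32, 4.63, 4.01 and 5.03 for eMC empty. It fell by 3.88 (SE 0.37, adjusted p = 3.46e-08), and Gclm, of glutathione synthesis, by 3.71 (SE 0.55), both without overlap. All eMC empty values of Slc7a11 lay below the dips of their arrays (5.31 to 8.18). Its separation from eMC empty thus rests on dim values, and no fold is given.

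Proliferation genes hardly parted the sides. Of 14 cell cycle and replication genes 3 rose and 0 fell, with medians of 0.01 and 0.05. The 3 were Mcm2, Mcm3 and Mcm5, subunits of the replicative helicase, which rose by 1.43 ± 0.31, 1.72 ± 0.57 and 1.63 ± 0.62. Only Mcm2 was called with the arrays at the same median or without the 3 arrays of high median, and 0 of the 3 with the arrays at the same 75th percentile. Mcm3 lost its call without eMC empty 4 or eMC empty 5 (adjusted p = 0.076 and 0.0672), and without CDS 6 through the order of the groups (adjusted p = 0.0415). Mcm5 (adjusted p = 0.0488) lost it in 16 of the 20 fits that leave out an array, with adjusted p between 0.0536 and 0.133. Mki67, the proliferation marker, had a difference of 0.92 ± 0.19, under the required size. Among p53 targets and inhibitors of cyclin-dependent kinases 1 of 10 rose and 1 fell, near the shares of all genes (5.86% and 7.63%). Cdkn2a read 5.32 to 10.02 in CDS and 2.51 to 11.81 in ES, against 4.8, 6.9, 1.88 and 2.05 in eMC CIC-DUX4 and 2.57 to 3.27 in eMC empty, and rose by 5.16 ± 1 (adjusted p = 0.000339, at least 6.02-fold). Its neighbour Cdkn2b fell by 1.89 (SE 0.68, adjusted p = 0.0373), a call lost in 12 of the 20 fits that leave out an array (adjusted p between 0.0512 and 0.0888). Cdkn1a, Mdm2 and Ccng1, targets of p53, were not called.

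Of 11 clock genes 1 rose, the circadian repressor Cry1, a share near the 5.86% of all genes, and 0 fell; with the arrays at the same 75th percentile 2 rose and 1 fell. It read 10.04 to 10.6 in CDS (median 10.46) and 9.68 to 10.81 in ES (median 10.45). It read 9.49, 9.39, 9.35 and 9.53 in eMC CIC-DUX4, and 4.76, 5.15, 4.89 and 8.3 for eMC empty. All tumors were above all cultures, by little against eMC CIC-DUX4, and Cry1 rose by 2.74 ± 0.38 (adjusted p = 7.91e-06). Per2 parted the tumors instead, with means of 12.12 in CDS and 2.41 in ES, and was not called. The hour at which tumors and cultures were collected is not given in the labels.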

How the data were processed

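Biotin-labelled cRNA from total RNA was hybridised to Affymetrix mouse arrays. The authors deposited log2 values per probe set, made with MAS5 per the submitters' processing notes; its version was not given in the sources used here, nor were its settings. No 2 arrays held identical values, and 0 columns lacked a sample.

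Signals were taken to the linear scale, offset by 1.42305 (0.25 times the median of the array medians, 5.6922) and returned to log2. Of 45141 probe sets, 104 were controls; of the other 45037, 28898 had 1 gene symbol in GEO's platform annotation (28689 matched to RefSeq), 551 had several and 15588 none. Those above the array median in at least 4 arrays were kept (26897, of which 19542 had 1 symbol), giving 12343 genes with 1 probe set each. The 4 groups were fitted together with lmFit and eBayes with trend (R 4.3.3, limma 3.58.1, the package data.table in version 1.17.8), which gave every adjusted p in the text; ± is the SE of a log2 difference. A call required a Benjamini-Hochberg adjusted p under 0.05, a size of at least 1 and both tumor means on the same side of both culture means; the fit was repeated after quantile normalization. More than 1 probe set was kept for 780 called genes, and in 4 of these another probe set was called in the opposite direction. The number of arrays limits the precision.

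Named genes are the 12 highest and 12 lowest called on both scales without overlap, by the smaller absolute change of the 2 scales, plus, from every list, at most 3 called members or else its highest member. Predicted gene names were left out. The 32 lists held 342 members, of which 298 were on the array and 273 were tested. The members, lists and sequence motifs were chosen with earlier results of these data known. The dip behind a lower bound is the minimum of an array's density curve that parts dim from bright probe sets (bandwidth 0.35); eMC CIC-DUX4 6 had none. Promoters are from RefSeq (GRCm38.p6), searched on both strands from 250 bases before to 50 after the start; 9914 of 12343 tested genes had one.

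The call on a single scale was tested on simulated data for this comparison over 12343 genes. The simulation used normal noise with the same spread in all groups for a gene, and no differences of distribution between arrays. That call recovered 90% of genes set 4 lower (log2), 42% of those 2 lower, 56% of those 2 higher and 94% of those 4 higher, with 10 false calls. The rule of passing on both scales was not simulated, so these figures do not describe it. The alternatives tried were other scalings, offsets, filters, spread models, thresholds, probe set summaries, group weights, a replicate block and each array left out.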

Additional observations from a re-analysis of the deposited data

Results flagged for a closer look

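CDS and ES differed from each other on both scales in 23 named genes; the log2 difference of CDS minus ES as deposited is given for each. Among vessel genes it was 2.19 for Rgs5, 2.31 for Aplnr, 3.38 for Cdh5, 3.05 for Adgrf5, 2 for Nrarp and 3.39 for Plvap. Among the genes that fell most it was 3.81 for Gdf10, 4.42 for Agtr2, 2.74 for Cyp7b1, 1.96 for Sncg and 4.29 for Tnmd. In immune genes it was 1.37 for Tapbp, 4.09 for Ifit1 and 4.48 for Cxcl5. In matrix genes it was 2.55 for Thbs2, 1.76 for Lox, 1.22 for Tnc, 1.25 for Nid1, 2.04 for Mmp2 and -3.89 for Mmp3. It was also below 0 for Pdk1 (-2.57), F3 (-2.44) and Fdps (-2.01).

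Single arrays stood far from the rest of their group by Dixon's test in 44 of 360 groups of values tested, where chance flags about 1 in 20 groups. CDS 2, an array with a median above 5, was high for Pparg (7.6), Thrsp (11.58), Sncg (7.72), G0s2 (8.98), Mrap (8.78), Cd3e (6.09), Cpa3 (6.09), S100b (6.29) and Sesn2 (7.59). CDS 5, where 11.7% of probe sets lay above the dip, was low for Esam (8.77), Mcam (6.42), Mcm3 (5.72), Mcm5 (5.58), Cyp51 (5.85) and Fdps (5.97). CDS 6 was low for C1qa (10.26) and Mmp2 (10.08).

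Among the Ewing sarcomas, ES 41 was high for Ucp1 (3.17), Agtr2 (6.56) and Sox10 (3.34) and low for Aplnr (8.44). The Ucp1 and Sox10 values lay in the dim part of ES 41, below its dip of 5.35. ES 46 was high for Gzma (8.2) and Mmp2 (12.02). ES 47 was high for Usp18 (10.09), Ifit1 (8.82) and Lats2 (4.95) and low for Cma1 (1.71, below its dip of 4.44) and Lum (5.59). ES 48 was high for the keratinocyte genes Krt14 (11.05), Krt5 (9.63) and Trp63 (5.96), and low for Ankrd37 (3.54), F3 (4.09) and Ddit3 (3.49). ES 51 was high for Thrsp (10.07) and Mrap (4.97) and low for the muscle genes Myh4 (1.66) and Ckm (1.98).

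Among the cultures, eMC CIC-DUX4 6, also an array with a median above 5, was high for Gzma (5.78), Myh4 (5.12) and Ankrd37 (6.47). For Ifit1 eMC CIC-DUX4 8 was low (9.39), by a small margin in a tight group. The array eMC empty 7 was high for Sesn2 (7.7) and Cry1 (8.3). The part of these arrays in the group differences was not tested beyond leaving each out in turn.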

How the results depend on the processing

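With quantile normalization 1635 genes were higher and 1964 lower, against 819 and 1014 as deposited. With the arrays at the same median 1318 were higher and 583 lower. At a log2 size of at least 2, 630 were lower and 1018 were called on both scales (448 higher, 570 lower). When all 4 single comparisons had to pass, 120 were higher and 238 lower, and 345 were called on both scales (112 higher, 233 lower). With the replicate block as a random effect 817 were higher and 1004 lower, with a consensus correlation of -0.03; same-numbered samples correlated between -0.19 and 0.49 over 8 pairs, 4 of them over 0.1, so the numbers were not shown to pair samples. Leaving out each array in turn gave 701 (without eMC CIC-DUX4 8) to 1112 (without CDS 5) higher and 911 to 1173 (without CDS 2) lower genes, and 1509 to 1764 called on both scales, 621 to 859 of them higher and 870 to 1035 lower. Without the 3 arrays of high median 1027 were higher and 973 lower. Of 87 named genes called, 18 lost their call with the same median, 15 with the same 75th percentile, 38 when all 4 single comparisons had to pass, 13 at a log2 size of at least 2 and 7 with the mean of a gene's probe sets, and 0 reversed under the alternatives run. Those lost with the mean of probe sets were Sox10, Pdk1, Lats2, Tnc, Mcm3, Mcm5 and Sesn2. The cause of the lost calls and changed counts was not tested. Among lists, the same median took the lower members of the actin, fibrillar matrix, basement membrane and protease lists to 0. Values near the dim part of an array have little order, which limits small differences of dim genes.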
